A study of Mus musculus with 30 samples.

Results

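Genes that mark tendon cells, together with Angptl7, were followed in quiescent and injury-activated satellite cells, the resident muscle stem cells. The set held 8 of the 19938 genes tested: Scx, Mkx, Tnmd, Thbs4, Comp, Fmod, Kera and Angptl7. The first 7 are tendon cell markers that had been seen high at 36 h after injury as a group in VCAM-sorted cells, though Scx itself was highest at 84 h. Angptl7 was chosen by its level, as it led the genes that were highest at 36 h in young VCAM-sorted cells. The differences of 36 h cells from quiescent cells and from 60 and 84 h cells in that sort therefore chose the members and are given below as a description with no test. Each member was measured by 1 probe set that the platform annotation gives to that gene alone.

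RNA of 30 cell samples was measured on Affymetrix Mouse Gene 1.0 ST arrays, 3 for each of 10 groups. Cells came from the hindlimb muscle of uninjured mice (quiescent satellite cells, QSCs) or of mice injured with BaCl2 (activated satellite cells, ASCs). In C57BL6 wildtype mice, cells that were VCAM+ / CD31- / CD45- / Sca1- were collected as QSCs and at 36, 60 and 84 h at an age of 2 to 3 months, and as QSCs and at 60 h at an age of 22 to 24 months. In Pax7CreER/+;ROSA26eYFP/+ mice of 2 to 3 months that had received Tamoxifen, YFP+ cells were collected as QSCs and at 36, 60 and 84 h. The Cre is driven by Pax7, so YFP marks cells that expressed Pax7 at the time of Tamoxifen and their descendants, while the VCAM sort rests on surface proteins at the time of collection. The sort, the genotype and Tamoxifen differ together between the YFP and VCAM groups and cannot be told apart. The labels do not say whether the 3 samples of a group came from separate animals, so the p-values measure the spread between these samples, which may be technical.

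Tendon cells, or tenocytes, make and maintain the parallel collagen fibrils of tendon. Their precursors are marked by scleraxis (Scx), a basic helix-loop-helix transcription factor, and their collagen programme also depends on Mohawk (Mkx), a homeobox transcription factor. Mature tenocytes carry tenomodulin (Tnmd), a membrane glycoprotein. They secrete the thrombospondins Thbs4 and Comp and the small leucine-rich proteoglycans fibromodulin (Fmod) and keratocan (Kera), which bind collagen and shape its fibrils. Angptl7 encodes a secreted protein of the angiopoietin-like family, best known from the eye. In muscle, tendon cells and other connective tissue cells lie beside the fibres, and satellite cells lie under the basal lamina of the fibres.

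Values are log2 intensities, so a difference of 1 is a doubling, and they are comparable between arrays for a given gene but not between genes. A gene was called when its Benjamini-Hochberg adjusted p from limma over all 19938 genes was under 0.05 and its fold change was at least 1.5. In bulk RNA of a sorted population, fewer cells of a type and less RNA per cell cannot be told apart.

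Markers of the sorted population were checked first. Vcam1, the antigen of the sort, had group means of 12.17 to 12.88 in all 10 groups, and Pax7, the transcription factor gene of satellite cells, was at 11.68 in young VCAM QSCs and 10.98 in YFP QSCs, and at 8.95 and 10.03 at 36 h. The mean level of 12 satellite cell and myogenic markers was 12.21 in young VCAM QSCs, 10.51 at 36 h in VCAM cells and 11.23 at 36 h in YFP cells. Genes of excluded antigens were measured too. Pecam1, which encodes CD31, ranged from 7.34 in young VCAM cells at 60 h to 10.98 in YFP cells at 36 h, and Ptprc, which encodes CD45, from 6.24 in YFP QSCs to 9.49 in YFP cells at 84 h. Array medians lay between 7.03 and 7.16, and arrays of the same group had a Pearson r of 0.996 to 0.9983 over genes (genes being no independent replicates).

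The start regions of 2 members are shown because they carry the E-box CAGATG, a form of the CANNTG box that basic helix-loop-helix factors bind, and that of Thbs4 is shown beside them because it does not. The sequences are from RefSeq (GRCm38.p6), run 5′ to 3′ on the strand of the gene over the 300 bases around its start, most of them upstream, and have CAGATG, read on either strand, in capitals. Angptl7 lies on the minus strand at chr4:148500413-148500712, Fmod on the plus strand at chr1:134037004-134037303 and Thbs4 on the minus strand at chr13:92794769-92795068.
Angptl7: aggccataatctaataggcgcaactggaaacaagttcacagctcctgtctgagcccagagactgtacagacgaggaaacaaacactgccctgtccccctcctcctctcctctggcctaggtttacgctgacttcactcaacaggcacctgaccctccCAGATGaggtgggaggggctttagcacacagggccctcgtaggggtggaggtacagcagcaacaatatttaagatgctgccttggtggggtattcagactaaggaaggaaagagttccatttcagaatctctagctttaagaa
Fmod: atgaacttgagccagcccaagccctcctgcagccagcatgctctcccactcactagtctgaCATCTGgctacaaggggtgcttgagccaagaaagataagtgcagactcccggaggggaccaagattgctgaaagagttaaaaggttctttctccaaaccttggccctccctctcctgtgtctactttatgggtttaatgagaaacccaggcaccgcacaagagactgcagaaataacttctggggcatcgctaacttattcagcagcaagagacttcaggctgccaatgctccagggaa
Thbs4: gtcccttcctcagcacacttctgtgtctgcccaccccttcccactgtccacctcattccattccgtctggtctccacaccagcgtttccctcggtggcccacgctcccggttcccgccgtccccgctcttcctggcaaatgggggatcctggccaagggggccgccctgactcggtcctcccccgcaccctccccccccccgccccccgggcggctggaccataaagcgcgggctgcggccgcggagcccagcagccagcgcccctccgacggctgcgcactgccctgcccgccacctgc

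Counted from the start site, the box begins at position -93 in Angptl7 and at position -189 in Fmod, where it reads CATCTG on the printed strand. Start regions of 5 of the 8 members were in the table used here, those of Thbs4, Fmod, Kera, Tnmd and Angptl7. CAGATG was found in 2 of these 5 and in 17.2% of all 32851 start regions of the same length, searched on both strands. The looser CANNTG, which includes CAGATG, was found 3 times in Angptl7, 2 times in Thbs4 and 1 time in Fmod, and in 72.3% of all start regions. CAGACA, which holds the core of a Smad box, was found 1 time each in Thbs4 and Angptl7 and in 21.0% of all start regions. TATAAA was found in 0 of the 5 and in 13.6% of all. The G and C content was 72.0% in Thbs4 and between 40.0% and 51.3% in the other 4. These matches describe letters in a window and do not show that a factor binds there.

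The 7 members other than Scx were higher at 36 h in young VCAM cells than in any other group, and they spanned 5.39-fold (Mkx) to 36.7-fold (Angptl7) between their lowest and highest group means. Angptl7 had the widest span of the 8 and Scx the narrowest, at 3.55-fold. In the comparison of 36 h cells with QSCs in the VCAM sort, on which the members were chosen, 7 of 8 lay past the thresholds upwards, against 13.2% of all genes, and 0 downwards, against 9.72%. Angptl7 ranked 40th among the rises of all genes and Thbs4 95th, while Scx ranked 3044th.

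**Figure D1:**
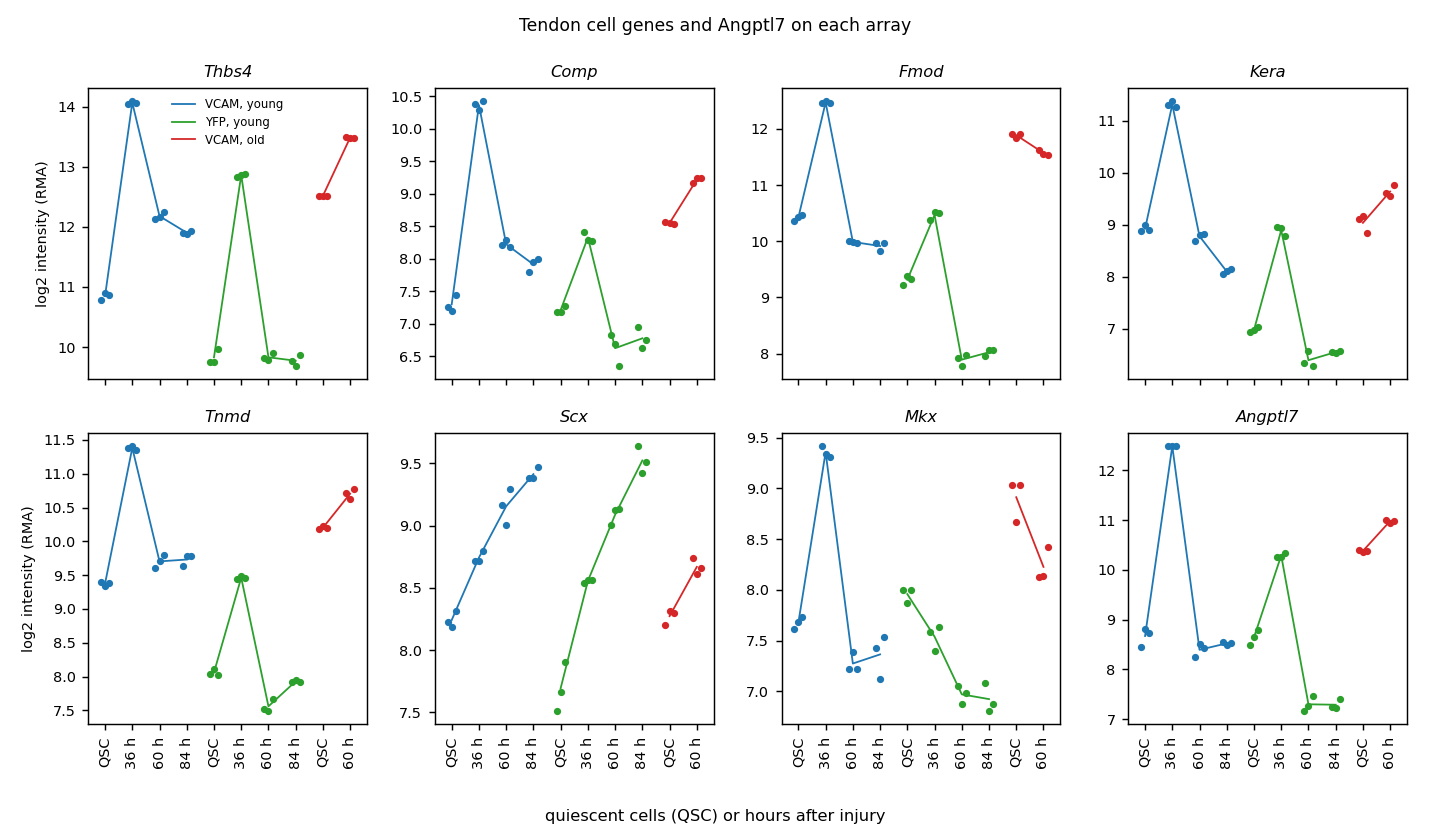
Log2 intensity of each of the 8 genes on each of the 30 arrays, by group, with QSCs and hours after injury on the horizontal axis. Points are arrays, lines join group means, and colours give young VCAM, young YFP and old VCAM cells. For 7 genes the 3 young VCAM arrays at 36 h lie above all others, while Scx lies highest at 84 h (means 9.52 and 9.41 in YFP and VCAM cells).

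Angptl7 read 8.46, 8.82 and 8.74 on the 3 young VCAM QSC arrays and 12.49, 12.48 and 12.49 at 36 h, before 8.25, 8.50 and 8.43 at 60 h and 8.54, 8.49 and 8.53 at 84 h. In YFP cells it read 8.50, 8.64 and 8.79 in QSCs, 10.27, 10.26 and 10.34 at 36 h, 7.17, 7.26 and 7.47 at 60 h and 7.25, 7.22 and 7.40 at 84 h. In old VCAM cells it read 10.41, 10.36 and 10.38 in QSCs and 11.01, 10.95 and 10.99 at 60 h. The 36 h arrays stood apart from every other array of their sort, the QSC arrays of the VCAM and YFP sorts overlapped, and both old groups lay above all young groups but those at 36 h in VCAM cells. Old QSCs also lay just above the YFP cells at 36 h, by 0.09 between means. The difference of 36 h cells from QSCs was 3.82 (SE 0.083, n = 3 per group) in the VCAM sort, a 14.1-fold difference, and 1.65 (SE 0.083) in the YFP sort, a 3.13-fold one. The gene was picked from all genes by its course in young VCAM cells, and its like course in YFP cells was known, so values of Angptl7 that rest on young arrays are given here and below without a test. From 36 to 60 h the gene was lower by 4.09 in VCAM cells, the second largest fall of all 19938 genes, and by 2.99 in YFP cells.

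After the 36 h peak the gene did not settle at the same level in the 2 sorts. In VCAM cells the difference from QSCs was -0.28 at 60 h and -0.15 at 84 h, both under the fold threshold and with overlapping arrays. In YFP cells the difference from QSCs was -1.35 at 60 h and -1.35 at 84 h, with all 3 arrays of each time below all QSC arrays.

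The thrombospondins bind collagen and other matrix proteins. Thbs4 read 10.79, 10.90 and 10.87 in young VCAM QSCs, 14.05, 14.08 and 14.06 at 36 h, 12.13, 12.16 and 12.25 at 60 h and 11.89, 11.89 and 11.92 at 84 h. In YFP cells it read 9.76, 9.76 and 9.98 in QSCs, 12.84, 12.86 and 12.88 at 36 h, 9.82, 9.78 and 9.90 at 60 h and 9.77, 9.68 and 9.87 at 84 h. The groups of the VCAM sort were all apart from each other, while the QSC, 60 h and 84 h groups of the YFP sort overlapped. The 36 h difference from QSCs was 3.21 in the VCAM sort (description only), and in the YFP sort Thbs4 rose by 3.03 (SE 0.054, adjusted p = 1.99e-24), 8.17-fold. At 60 and 84 h it stayed above QSCs in VCAM cells, by 1.33 (adjusted p = 1.04e-17) and 1.05 (adjusted p = 1.87e-15), whereas in YFP cells both means were 9.83 at 60 h and in QSCs (adjusted p = 0.997). The young VCAM groups in QSCs and at 60 and 84 h also entered the comparisons that chose the members. P-values between those VCAM groups, here and below, are thus not independent of the choice.

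Comp, the cartilage oligomeric matrix protein, was also higher at 36 h than at other times in both sorts. Its group means were 7.30 ± 0.13 (SD, n = 3) in young VCAM QSCs, 10.36 ± 0.063 at 36 h, 8.22 ± 0.060 at 60 h and 7.91 ± 0.11 at 84 h. In YFP cells they were 7.21 ± 0.051, 8.33 ± 0.073, 6.62 ± 0.25 and 6.78 ± 0.16. The QSC arrays of the 2 sorts overlapped and the 36 h arrays did not. Comp rose by 1.12 at 36 h in YFP cells (SE 0.090, adjusted p = 4.53e-11), against a described 3.06 in VCAM cells. Its rise over QSCs at 84 h in VCAM cells, 0.61, fell short of the fold threshold without QSC replicate 2 (0.56) or 84 h replicate 3 (0.57). Its fall at 60 h in YFP cells, -0.59, did so without YFP QSC replicate 3 (-0.56) or 60 h replicate 3 (-0.45).

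The proteoglycan genes Fmod and Kera had means under their QSC levels at 60 and 84 h in both sorts. Fmod had means of 10.42 ± 0.052 (SD, n = 3), 12.47 ± 0.015, 9.99 ± 0.017 and 9.92 ± 0.081 in young VCAM cells as QSCs and at 36, 60 and 84 h, and of 9.32 ± 0.079, 10.47 ± 0.081, 7.89 ± 0.10 and 8.03 ± 0.064 in YFP cells. Kera had means of 8.92 ± 0.064, 11.31 ± 0.055, 8.78 ± 0.074 and 8.10 ± 0.052 in VCAM cells and of 6.97 ± 0.046, 8.90 ± 0.095, 6.39 ± 0.15 and 6.55 ± 0.020 in YFP cells. In YFP cells at 36 h Fmod rose by 1.15 (adjusted p = 1.85e-15) and Kera by 1.92 (adjusted p = 1.98e-17). Fmod then fell below QSCs by 1.42 at 60 h (adjusted p = 5.8e-18) and by 1.29 at 84 h (adjusted p = 5.55e-17) in YFP cells, and its differences of -0.44 and -0.51 in VCAM cells were under the fold threshold. After quantile normalization these VCAM differences were -0.59 and -0.64, and both were called. Kera fell below QSCs at 84 h in VCAM cells, by 0.82 (adjusted p = 3.14e-10), and was the 1 member called between 60 and 84 h in that sort, with a fall of 0.68 (adjusted p = 8.88e-08), where 0.732% of all genes were called lower. In YFP cells at 60 h Kera lay 0.58 under QSCs, a fold of 1.496 that was not called, but it was called without QSC replicate 1 (-0.60) or 60 h replicate 2 (-0.67).

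Tnmd, the membrane protein of mature tenocytes, had means of 9.38 ± 0.030 (SD, n = 3), 11.38 ± 0.030, 9.70 ± 0.10 and 9.73 ± 0.083 in young VCAM cells as QSCs and at 36, 60 and 84 h, and of 8.06 ± 0.046, 9.46 ± 0.021, 7.56 ± 0.094 and 7.93 ± 0.010 in YFP cells. It rose by 1.40 at 36 h in YFP cells (adjusted p = 1.11e-17). The highest young YFP group, at 36 h, lay only 0.09 above the VCAM QSCs, with arrays apart.

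The transcription factor genes departed from this course. Mkx read 7.61, 7.69 and 7.74 in young VCAM QSCs, 9.42, 9.34 and 9.31 at 36 h, 7.22, 7.39 and 7.22 at 60 h and 7.43, 7.12 and 7.54 at 84 h. In YFP cells it read 8.0, 7.87 and 8.0 in QSCs, 7.59, 7.40 and 7.64 at 36 h, 7.05, 6.88 and 6.98 at 60 h and 7.09, 6.81 and 6.88 at 84 h. The VCAM arrays at 36 h lay far above the others, while in YFP cells each later mean was lower than the one before. The 36 h difference from QSCs was thus 1.68 in VCAM cells (description only) and -0.42 in YFP cells (adjusted p = 0.00145, under the fold threshold). In YFP cells Mkx fell below QSCs by 0.99 at 60 h (adjusted p = 4.07e-09) and by 1.03 at 84 h (adjusted p = 1.81e-09). Its change from 36 to 60 h in YFP cells, -0.57, was not called but was called without 36 h replicate 2 (-0.64) or 60 h replicate 1 (-0.61), and its fall from 36 to 84 h, -0.62, was lost without 36 h replicate 3 (-0.57) or 84 h replicate 2 (-0.56).

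Scx did not peak at 36 h in either sort. It read 8.22, 8.19 and 8.32 in young VCAM QSCs, 8.72, 8.71 and 8.80 at 36 h, 9.16, 9.01 and 9.30 at 60 h and 9.39, 9.38 and 9.47 at 84 h. In YFP cells it read 7.51, 7.66 and 7.91 in QSCs, 8.54, 8.57 and 8.56 at 36 h, 9.0, 9.13 and 9.13 at 60 h and 9.64, 9.42 and 9.51 at 84 h. Within each sort the arrays of every time lay above those of the time before. Scx rose over QSCs by 0.91 at 60 h and 1.17 at 84 h in VCAM cells (adjusted p = 6.62e-11 and 4.38e-13), and by 0.86, 1.39 and 1.83 at 36, 60 and 84 h in YFP cells (adjusted p = 4.22e-10, 9.45e-15 and 3.12e-17). At 60 h the YFP and VCAM arrays overlapped, and so they did at 84 h.

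**Figure D2:**
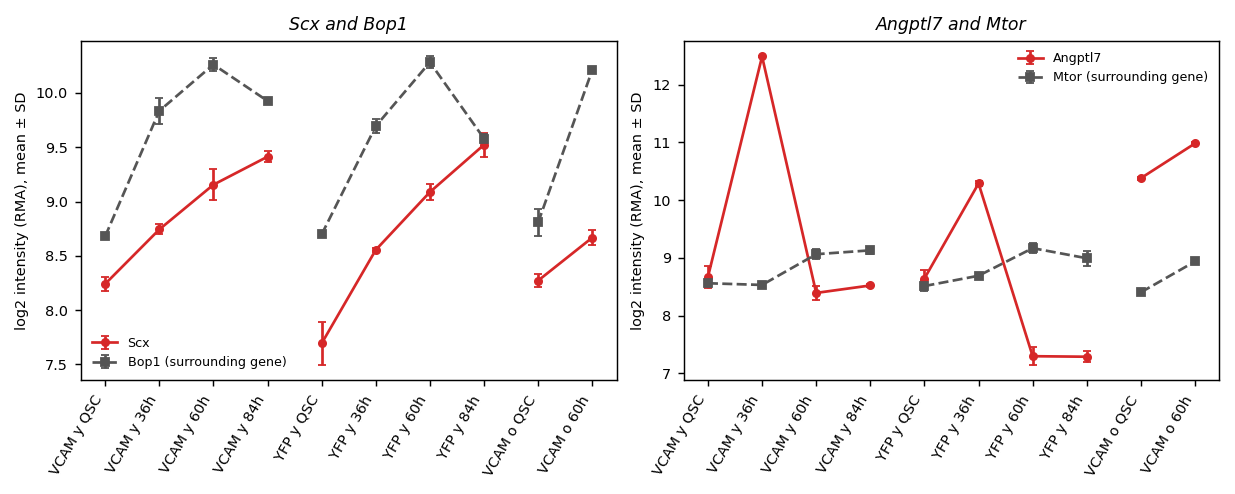
Mean log2 intensity ± SD (3 arrays) by group of Scx with Bop1 (left) and of Angptl7 with Mtor (right), where Bop1 and Mtor are the genes that surround them. Bop1 is higher at 36 and 60 h than in QSCs as Scx is, from 8.68 to 9.83 and 10.26 in young VCAM cells, while Mtor stays between 8.41 and 9.17. Levels of different genes cannot be compared.

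Both Scx and Angptl7 lie inside other genes in the RefSeq annotation (GRCm38.p6). Scx is on chromosome 15 within Bop1, a ribosome biogenesis gene, and Angptl7 is on chromosome 4 within Mtor, which encodes a growth-regulating kinase. Bop1 had means of 8.68, 9.83, 10.26 and 9.93 in young VCAM cells as QSCs and at 36, 60 and 84 h, and of 8.70, 9.69, 10.28 and 9.58 in YFP cells. It thus moved upwards with Scx to 60 h and was lower at 84 h than at 60 h, where Scx was higher. Its part in the Scx values was not tested. Mtor had means of 8.56, 8.53, 9.06 and 9.13 in young VCAM cells and was not highest at 36 h. Kera lies on chromosome 10 between Lum, 34259 bases away, and Epyc, 30380 bases away, which encode proteoglycans of the same family. Lum was at 7.60 in young VCAM QSCs and 11.61 at 36 h, and Epyc at 5.0 and 5.62. Prelp, the family member nearest to Fmod on chromosome 1, was at 12.18 and 12.41 and fell to 9.47 at 60 h. Of the 7 genes next to or around members 4 rose at 36 h in VCAM cells (Lum, Dcn, Bop1 and Epyc) and 3 in YFP cells (Lum, Bop1 and Dcn). The shares of all genes called higher were 13.2% and 10.1%.

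Counted over the 8 members, 7 rose and 0 fell at 36 h in YFP cells, where 10.1% of all genes were called higher and 6.14% lower, and the median difference was 1.28 against -0.06 over all genes. Angptl7 is among the 7 as a description. At 60 h against QSCs 3 members were called higher in VCAM cells (16.6% of all genes) and 0 lower (12.6%), and 1 higher (17.2%) and 4 lower (12.8%) in YFP cells. At 84 h against QSCs 3 were higher (16.4%) and 1 lower (11.2%) in VCAM cells, and 1 higher (17%) and 3 lower (11.2%) in YFP cells. From 36 to 60 h 0 were higher (6.26% and 8.73% of all genes in VCAM and YFP cells) and 7 in VCAM cells (8.49%) and 6 in YFP cells (8.58%) were lower. From 36 to 84 h 1 was higher (5.83% and 8.52%) and 7 were lower in each sort (6.44% and 6.77%). The VCAM values of these 36 h comparisons were used in choosing the members. Between 60 and 84 h in YFP cells no member was called by limma, while 3 had an unadjusted p under 0.05 and 2, Scx and Tnmd, an adjusted p under 0.05 without a fold threshold (39.1% of all genes), where 4.66% of all genes were called higher and 2.19% lower. In VCAM cells 3.22% of all genes were called higher between these times, and 0 members.

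Levels in YFP-sorted cells were set beside those in VCAM-sorted cells at each time. Lower levels of tendon cell markers in YFP cells were known when the members were chosen, and the VCAM arrays also entered the choosing comparisons, so these values are not independent evidence of that direction. They are given as a description with no test. In QSCs 4 of 8 members lay past the thresholds downwards in YFP cells, where 1.74% of all genes did. The difference was -1.95 for Kera (SE 0.076), -1.32 for Tnmd, -1.11 for Fmod and -1.02 for Thbs4, each with all 3 YFP arrays under all VCAM arrays. Angptl7 and Comp overlapped between the sorts, at -0.03 for Angptl7 and -0.09 for Comp. Scx differed by -0.55 and Mkx by 0.28, both under the fold threshold, and Scx passed it without YFP QSC replicate 3 (-0.65). No member lay past the thresholds upwards, where 1.82% of all genes did.

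The values at 60 and 84 h are a description for the same reason. At each time 6 of 8 members lay past the thresholds downwards in YFP cells, where 0.557% and 0.446% of all genes did, and 0 upwards (0.757% and 1.21%). At 60 h the difference was -2.35 for Thbs4, -2.39 for Kera, -2.14 for Tnmd, -2.10 for Fmod, -1.60 for Comp and -1.10 for Angptl7. At 84 h these 6 genes differed by -1.14 (Comp) to -2.13 (Thbs4). All 6 had the 3 YFP arrays under the 3 VCAM arrays at both times. Scx differed by -0.07 and 0.11 with overlapping arrays, and Mkx by -0.30 and -0.44 under the fold threshold.

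At 36 h the comparison shares the VCAM arrays on which the members were chosen, so its values are a description too. The members other than Scx lay lower in YFP cells, with differences from -1.2 (Thbs4) to -2.42 (Kera), 7 of 8 past the thresholds where 2.78% of all genes were lower and 2.49% higher, and Scx differed by -0.19. The same holds for the difference between the sorts in the 36 h response, measured as the YFP change from QSCs minus the VCAM change. It was -2.17 for Angptl7, -2.10 for Mkx, -1.95 for Comp, -0.90 for Fmod and -0.60 for Tnmd, all past the thresholds, where 4.47% of all genes were lower and 4.61% higher. It was -0.47 for Kera, -0.18 for Thbs4 and 0.36 for Scx, which were not called. Thbs4 and Kera thus differed between the sorts already in QSCs, while Angptl7 and Comp overlapped in QSCs and were apart at 36 h. The value of Tnmd was under the fold threshold without YFP QSC replicate 2 (-0.58). In the change from 36 to 60 h, Thbs4 fell by 1.14 more in YFP cells, and Mkx and Angptl7 fell by 1.51 and 1.10 less, where 2.78% of all genes were lower and 4.05% higher. This comparison shares the same VCAM arrays too.

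**Figure D3:**
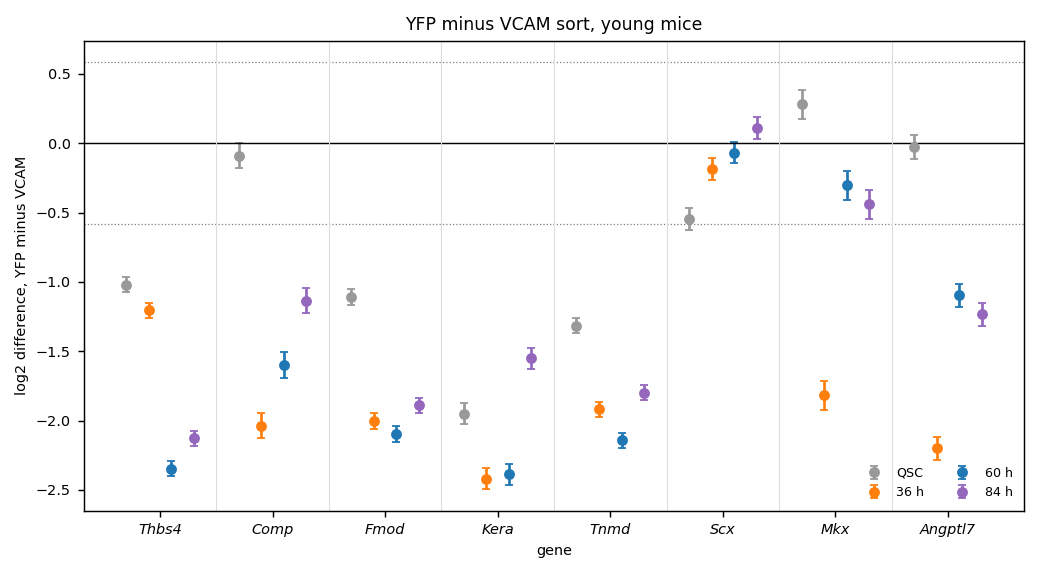
Difference in log2 intensity between young YFP and young VCAM cells for each gene (YFP minus VCAM) in QSCs and at 36, 60 and 84 h. Points are limma estimates from 3 arrays per group, bars are standard errors, and dotted lines mark a 1.5-fold difference. Thbs4, Fmod, Kera and Tnmd lie between -1.02 and -2.42 at all 4 times, Angptl7 and Comp are near 0 in QSCs only, and Scx stays between -0.55 and 0.11.

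Old and young mice were compared in the VCAM sort, in QSCs and at 60 h, to see whether levels changed with age. The young arrays of both comparisons also entered those that chose the members, in which low levels in QSCs and at 60 h counted towards the choice. The differences with age are therefore given as a description with no test. In old QSCs 6 of 8 members lay past the thresholds upwards, where 3.04% of all genes did. Angptl7 was higher by 1.71 (SE 0.083), 3.27-fold, at 8.46, 8.82 and 8.74 on the young arrays and 10.41, 10.36 and 10.38 on the old. Thbs4 was higher by 1.66 (SE 0.054), at 10.79, 10.90 and 10.87 on the young arrays and 12.51, 12.52 and 12.52 on the old. Fmod was higher by 1.46, Comp by 1.25, Mkx by 1.23 and Tnmd by 0.82. The young and old arrays of these 6 genes did not overlap. Kera and Scx overlapped between ages, at 0.11 and 0.03, and no member lay past the thresholds downwards, where 4.7% of all genes did.

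At 60 h 7 of 8 members lay past the thresholds upwards in old cells, where 4.75% of all genes did, and 0 downwards (0.657%). These values are a description too, since low levels on the young 60 h arrays counted towards the choice. Angptl7 was higher by 2.59 (SE 0.083), 6.02-fold, at 8.25, 8.50 and 8.43 on the young arrays and 11.01, 10.95 and 10.99 on the old. Fmod was higher by 1.58, Thbs4 by 1.31, Tnmd by 1.00 and Comp by 0.99. Mkx was higher by 0.95 and Kera by 0.86. Scx was the exception, with 9.16, 9.01 and 9.30 on the young arrays and 8.74, 8.61 and 8.66 on the old. Its difference of -0.49 was under the fold threshold.

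**Figure D4:**
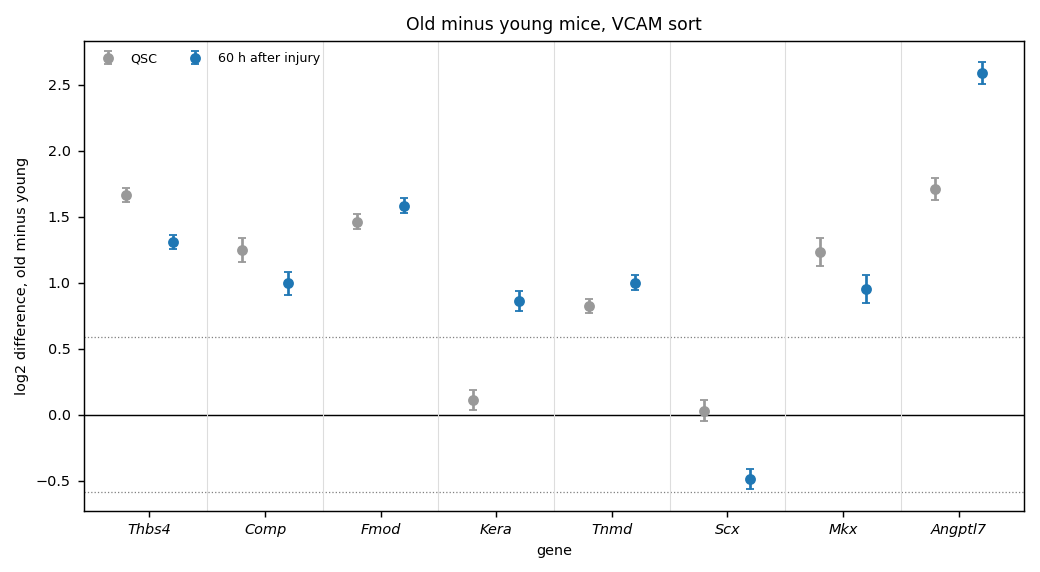
Difference in log2 intensity between old and young VCAM-sorted cells for each gene (old minus young) in QSCs and at 60 h after injury. Points are limma estimates from 3 arrays per group, bars are standard errors, and dotted lines mark a 1.5-fold difference. Angptl7 lies highest at both times (1.71 and 2.59), Kera is near 0 in QSCs and at 0.86 at 60 h, and Scx lies below 0 at 60 h (-0.49).

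In old mice the levels at 60 h were set against old QSCs. Of 8 members 4 rose, where 17.8% of all genes did, and 1 fell, where 11.7% did. Thbs4 rose by 0.97 (adjusted p = 9.53e-15), Comp by 0.67 (adjusted p = 3.21e-07), Kera by 0.60 (adjusted p = 9.67e-08) and Angptl7 by 0.60 (adjusted p = 4.61e-07), and Mkx fell by 0.69 (adjusted p = 2.13e-06). After quantile normalization Comp, Kera and Angptl7, at 0.39, 0.36 and 0.44, were under the fold threshold, and Kera was so without old QSC replicate 3 (0.51) or old 60 h replicate 3 (0.55). The change from QSCs to 60 h is compared between ages without a test, since the young arrays also served to choose the members. It differed past the thresholds for 2 members, Angptl7 by 0.88 (SE 0.12) and Kera by 0.75 (SE 0.11). Both were higher in old cells, where 6.81% of all genes were called higher and 2.16% lower. Scx, at -0.52, was under the fold threshold, but passed it without young VCAM 60 h replicate 2 (-0.59). It also passed with arrays centred on their medians (-0.61) or quantile normalized (-0.62). Without a fold threshold, members called and the share of all genes called were 7 and 59.7% for VCAM 60 h and 7 and 60.8% for VCAM 84 h against QSCs, 4 and 28% for VCAM 84 h against 60 h, 7 and 64.2% for YFP 84 h against QSCs, 8 and 69.2% for old 60 h against QSCs, 4 and 31.3% for the difference with age and 5 and 30.9% for the difference in the change from 36 to 60 h between sorts. With a fold of at least 2 they were 1 and 16.1% for VCAM 60 h, 2 and 14.4% for VCAM 84 h and 3 and 16.3% for YFP 60 h against QSCs, 0 and 1.07% for VCAM 84 h against 60 h, 4 and 2.04% for old against young cells at 60 h, 0 and 15.5% for old 60 h against QSCs, 0 and 2.47% for the difference with age and 3 and 2.36% for the difference in 36 h response between sorts. No old cells were taken at 36 h, so the 36 h level in old mice was not measured.

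Young VCAM cells at 36 h came first for Thbs4, Comp, Fmod, Kera, Tnmd, Mkx and Angptl7, in each case with arrays above those of the next group. The old 60 h group came next for Thbs4, Comp, Kera, Tnmd and Angptl7, and the old QSC group for Fmod and Mkx. The lowest 2 means were those of the YFP cells at 60 and 84 h for Thbs4, Comp, Fmod, Kera, Tnmd, Mkx and Angptl7. The arrays of these 2 groups overlapped except for Tnmd. For Thbs4 the YFP QSC arrays overlapped with both groups as well. For Scx the YFP cells at 84 h were highest, overlapping with the VCAM cells at 84 h, and YFP QSCs lowest, with arrays apart from the next group. Overlaps in the middle of the order included Kera in old QSCs, young VCAM QSCs, YFP cells at 36 h and VCAM cells at 60 h, and Angptl7 in VCAM and YFP QSCs and in VCAM cells at 84 and 60 h.

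Over the 30 arrays the 7 members other than Scx correlated at 0.668 to 0.961, with a median r of 0.905 over 21 pairs, and Scx with the other 7 at -0.491 to -0.017. These points share arrays and groups, so the values describe likeness of pattern across the groups. The 7 genes are the members highest at 36 h in young VCAM cells, on which the set was chosen. Part of their likeness therefore follows from the choice. The deviations of arrays from their group means correlated at -0.385 to 0.745, with a median of 0.137 over the 21 pairs, and the highest value was that of Angptl7 with Thbs4.

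**Figure D5:**
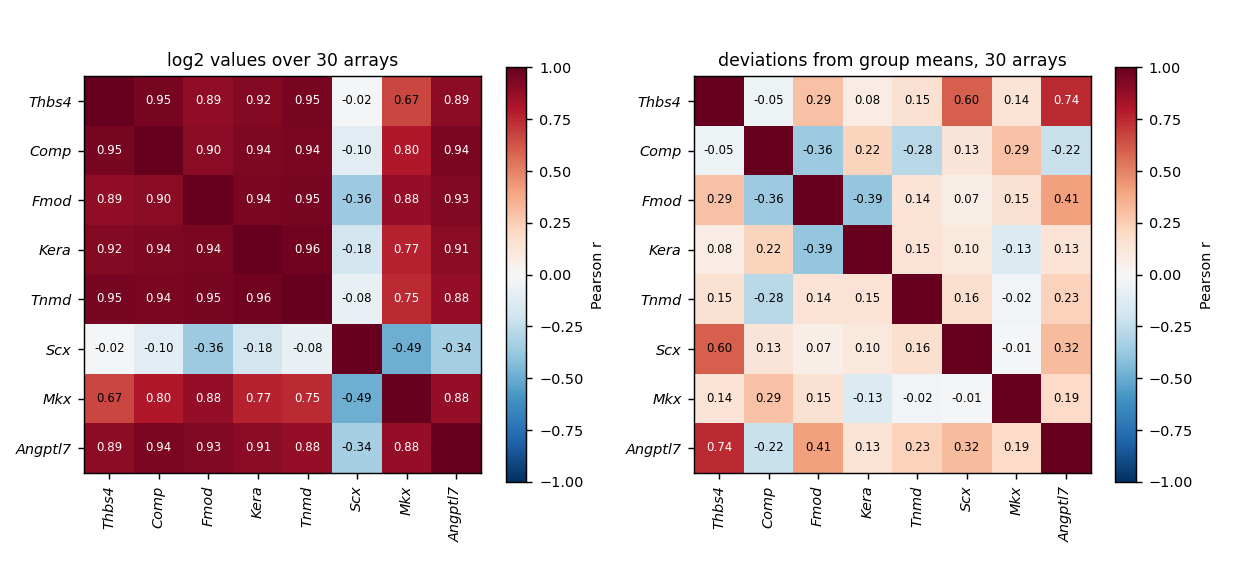
Pearson r between members over the 30 arrays, for log2 values (left) and for deviations from the group means (right), with colour from -1 to 1. On the left the 7 genes other than Scx pair at 0.668 to 0.961 and Scx pairs at -0.491 to -0.017. On the right the values spread around a median of 0.136 over all 28 pairs.

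The genes most like Angptl7 over the 30 arrays, among 6061 genes whose group means spanned at least 1, were Lcn2 (r = 0.979), which encodes a secreted iron-carrier-binding protein, the chemokine genes Ccl7 (0.972), Ccl2 (0.968) and Cxcl14 (0.963), and Itgbl1 (0.955). Lcn2 read 7.09 in young VCAM QSCs, 9.88 at 36 h and 6.68 at 60 h. The other members stood at ranks 14 (Comp), 23 (Fmod), 43 (Kera), 56 (Thbs4), 67 (Mkx), 70 (Tnmd) and 4997 (Scx) in likeness to Angptl7. Members were among the nearest genes to each other for Thbs4 (Tnmd, Comp, and then Prg4, the lubricin gene), Kera (Bmp5, Tnmd and Itgbl1) and Tnmd (Kera, Bmp5 and Thbs4). Fmod was most like Cpxm2 (0.988), Slit3 and Dcn, and Comp most like Itgbl1 (0.977), Aebp1 and Sgcd. Mkx was most like Calhm5 (0.967), Smoc2 and Scarf2, and Scx most like Ccdc141 (0.957), Armcx6 and Dtna.

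Other genes of tendon and ligament were followed in the same comparisons. Of 20, 16 rose and 2 fell at 36 h in young VCAM cells (median 1.65, against -0.01 over all genes), and 14 rose and 2 fell in YFP cells (median 1.15, against -0.06). Over all genes 13.2% were called higher and 9.72% lower in VCAM cells, and 10.1% and 6.14% in YFP cells. Prg4 rose most, by 4.93 and 3.97, followed in VCAM cells by Cilp, which encodes a matrix protein of the cartilage intermediate layer, by 3.59, by Tnc, the tenascin-C gene, and by Pdgfra, a growth factor receptor gene of connective tissue cells, by 3.44. From 36 to 60 h all 20 fell in VCAM cells and 16 in YFP cells, against 8.49% and 8.58% of all genes. From 60 to 84 h 9 rose and 1 fell in VCAM cells and 11 rose in YFP cells, where 0 members were called higher in either sort. Shares of all genes were 3.22% higher and 0.732% lower in VCAM cells and 4.66% higher in YFP cells. In YFP cells against VCAM cells 8 were lower and 1 higher in QSCs, 15 lower at 36 h, 12 at 60 h and 10 at 84 h. The shares of all genes were 1.74% lower and 1.82% higher in QSCs, and 2.78%, 0.557% and 0.446% lower at the later times. Postn and Col1a2 differed by -1.78 and -1.70 in QSCs, and Cilp and Itgbl1 by -2.44 and -2.42 at 36 h. In old cells 9 were higher and 2 lower in QSCs, with Prg4 (1.85) and the collagen cross-linking enzyme gene Lox (1.84) first, and 11 were higher at 60 h. Over all genes 3.04% were higher and 4.7% lower in old QSCs, and 4.75% were higher in old cells at 60 h.

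Families of single members were followed the same way. The shares of all genes called higher and lower at 36 h were 13.2% and 9.72% in VCAM cells and 10.1% and 6.14% in YFP cells. Of 14 other small leucine-rich proteoglycan genes 6 rose in VCAM cells at 36 h and 4 rose and 2 fell in YFP cells, with Lum first in both (4.01 and 2.35). Of these, 7 were lower in YFP than in VCAM cells at 36 h, 3 were higher in old QSCs, and 7 were higher and 1 lower in old cells at 60 h. The shares of all genes were 2.78%, 3.04%, 4.75% and 0.657%, in the same order. Of 11 thrombospondin and receptor genes 6 rose in VCAM cells at 36 h, led by Thbs1 (1.71) and Sdc1 (1.13), and 5 rose and 2 fell in YFP cells, where Thbs2 fell by 0.91. Of 10 genes of the angiopoietin and angiopoietin-like family and its receptors, 2 rose and 1 fell in VCAM cells and 4 rose and 2 fell in YFP cells. Lilrb4a, which encodes a receptor of myeloid cells, rose by 4.60 in both. None of the other Angptl genes moved as Angptl7 did in both sorts: Angptl4 rose by 0.98 in VCAM cells and Angptl1 fell by 1.24 in YFP cells.

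TGF-beta signalling drives Scx and matrix genes in developing tendon. Of 15 genes of the TGF-beta ligands, receptors and Smads, 3 rose and 2 fell at 36 h in VCAM cells (Ltbp2 by 3.40 and Tgfbi by 2.15 upwards), 3 rose and 4 fell in YFP cells, and 5 were higher in old than in young cells at 60 h, with Ccn2 first (2.07). Over all genes 13.2% rose and 9.72% fell at 36 h in VCAM cells, and 10.1% and 6.14% in YFP cells. At 60 h 4.75% of all genes were higher in old cells. Of 15 relatives and partners of Scx, Mkx and Tnmd, 2 rose and 1 fell at 36 h in VCAM cells, where the mesenchymal factor genes Twist1 and Twist2 rose by 1.91 and 0.70 and Msc, a factor of muscle precursors, fell by 2.28. In YFP cells 1 rose and 1 fell. The counts of these 15 relatives and partners thus lay near the shares of all genes.

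Cartilage cells share Comp with tendon, and 11 cartilage markers were followed for that reason. None was called in any of the 22 comparisons by limma, though in a comparison up to 7 of 11 had an unadjusted p under 0.05 and up to 7 an adjusted p under 0.05 without the fold threshold. Their mean level lay between 6.80 and 7.18 on all arrays. As examples from the 11, Hapln1 had group means of 4.82 to 5.33, Matn1 of 5.56 to 5.99 and Col2a1 of 7.53 to 8.18. Levels of different genes cannot be compared, so these do not show whether cartilage cells were present. Of 9 nerve sheath markers 2 fell at 36 h in VCAM cells, where 9.72% of all genes did, and 1 rose in YFP cells, where 10.1% did.

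Markers of other cell types changed between the same groups as the members, and some genes, such as Lum, Dcn and Pdgfra, stand in more than 1 list. The shares of all genes called higher and lower at 36 h were 13.2% and 9.72% in VCAM cells and 10.1% and 6.14% in YFP cells. Of 13 fibroblast and fibro-adipogenic progenitor markers 6 rose and 1 fell at 36 h in each sort. Their mean level was 9.27 to 9.32 on the young VCAM QSC arrays, 10.19 to 10.26 at 36 h and 8.63 to 8.66 at 60 h, against 8.99 to 9.07, 9.65 to 9.69 and 8.05 to 8.11 in YFP cells. Pdgfra rose by 3.44 in VCAM and 2.12 in YFP cells. In old cells 6 of these markers were higher and 3 lower in QSCs and 8 higher at 60 h, with mean levels of 9.57 to 9.59 and 9.40 to 9.43. Over all genes 3.04% were higher and 4.7% lower in old QSCs, and 4.75% were higher in old cells at 60 h. Of 15 monocyte and macrophage markers all rose at 36 h in both sorts, from mean levels of 6.45 to 6.56 to levels of 9.82 to 9.93 in VCAM cells, and from 6.47 to 6.53 to levels of 9.54 to 9.56 in YFP cells. All 15 were higher in old than in young cells at 60 h, where the levels were 9.74 to 9.82 and 7.96 to 8.07, and 1 in QSCs. At 84 h in YFP cells the level of these markers was 9.60 to 9.66.

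Of 11 endothelial markers 1 rose and 3 fell at 36 h in VCAM cells and 9 rose and 1 fell in YFP cells, so that all 11 were higher in YFP cells at 36 h, with mean levels of 9.87 to 9.89 against 8.67 to 8.73. In old cells at 60 h 9 were higher. The shares of all genes at 36 h against QSCs and with age are those given for the fibroblast markers. Between the sorts 2.49% of all genes were higher in YFP cells at 36 h, and 1.74% were lower in YFP QSCs. Of 10 pericyte and smooth muscle markers 7 fell at 36 h in VCAM cells, Notch3 (-2.08) and Kcnj8 (-1.73) by most, and 5 were lower in YFP than in VCAM QSCs, with mean levels of 9.77 to 9.81 against 10.63 to 10.72. In old QSCs 5 were lower and at 60 h 5 were higher. Of the 12 satellite cell and myogenic markers 8 fell at 36 h in VCAM cells, with Chrdl2 (-4.31) and Calcr (-3.56) first, and 7 fell and 1 rose in YFP cells, and 7 were higher in YFP than in VCAM cells at 36 h. The part of these cell types in the levels of the tendon cell genes and Angptl7 was not tested.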

How the data were processed

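RNA of 30 sorted cell samples in 10 groups of 3 was measured on Affymetrix Mouse Gene 1.0 ST arrays from 100 ng total RNA. The authors deposited log2 intensities, produced by RMA in Affymetrix Expression Console (version not given in the sources used here). RMA subtracts background, makes the arrays' distributions alike and summarises the probes of a probe set, so a shift shared by most genes would be removed, and low values are compressed. The number of arrays limits the precision. The median SD of a gene within groups was 0.1.

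Of 35556 probe sets, 21789 had a single symbol in the platform annotation (21698 of them matched to RefSeq, GRCm38.p6, by Entrez ID), 1621 had several and 12146 none. Only those with a single symbol were used, the brightest for each of 998 genes with several, which left 19938 genes with no filter on low values. Probe sets of the members are 10411082 (Thbs4), 10572378 (Comp), 10349947 (Fmod), 10365987 (Kera), 10424905 (Scx), 10601648 (Tnmd), 10457323 (Mkx) and 10518526 (Angptl7).

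A model with 10 group means and 20 residual degrees of freedom was fitted with limma 3.58.1 (lmFit, eBayes) in R 4.3.3, and 22 contrasts were tested, two-sided, with Benjamini-Hochberg adjustment over all genes. Calls needed an adjusted p under 0.05 and a fold of at least 1.5. The members and the 14 gene lists were chosen with earlier results of these data known, among them rises of tendon cell markers at 36 h in VCAM cells and lower levels in YFP cells. Named genes were the members, the genes most like them (5 for Angptl7, 3 for each other), up to 4 called genes per list by size of change, the neighbours of members and the genes of the sort, and others were chosen after their values were seen. Ly6a (Sca1), which had no probe set with that symbol alone, and some other listed genes were not analysed here.

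On simulated data for YFP cells at 36 h against QSCs (19938 genes), 0, 23, 50 and 50 of 50 genes at folds of 1.2, 1.5, 2 and 4 were called, and 0 of 19738 unchanged genes. Of 135 pairs of arrays with the same replicate number, 27 had deviations from group means that correlated above 0.1 (mean r 0.035, and -0.018 between unlike numbers), and the numbers were not taken as pairs. Alternatives were other scalings, filters, call rules, probe set choices, variance models, subsets of groups, a replicate block and leaving out each array.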

Additional observations from a re-analysis of the deposited data

Results flagged for a closer look

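The response differed between groups of mice for 7 of the members in 10 cases. From QSCs to 60 h, old VCAM cells changed by 0.75 more than young ones for Kera and by 0.88 more for Angptl7. Both are given without a test because the young arrays also served to choose the members. In this comparison Kera went from 8.92 to 8.78 in young and from 9.04 to 9.64 in old cells, and Angptl7 from 8.67 to 8.39 in young and from 10.38 to 10.98 in old cells.

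From QSCs to 36 h, the response differed between the sorts for 5 members. The YFP change minus the VCAM change was -1.95 for Comp, -0.90 for Fmod, -0.60 for Tnmd, -2.10 for Mkx and -2.17 for Angptl7, given without a test because the 36 h VCAM arrays also served to choose the genes. Mkx was the member whose means moved in opposite directions, from 7.68 to 9.36 in VCAM cells and from 7.96 to 7.54 in YFP cells.

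From 36 to 60 h, the change in YFP cells minus that in VCAM cells was -1.14 for Thbs4, 1.51 for Mkx and 1.10 for Angptl7, which rests on the same VCAM arrays. Thbs4 went from 12.86 to 9.83 in YFP cells and from 14.06 to 12.18 in VCAM cells.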

How the results depend on the processing

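Across the alternatives no called difference of a member changed its sign, and 353 of 370 counts of members called stayed within 1.5 times the main count. Of the counts that moved, 16 did so under another call rule. With the adjusted p alone, members called were 7 instead of 3 for VCAM 60 h and 7 instead of 4 for VCAM 84 h against QSCs, 4 instead of 1 for VCAM 84 h against 60 h, 7 instead of 4 for YFP 84 h against QSCs, 2 instead of 0 for YFP 84 h against 60 h, 8 instead of 5 for old 60 h against QSCs, 4 instead of 2 for the difference in 60 h response with age and 5 instead of 3 for the difference in change from 36 to 60 h between sorts. With a fold of at least 2 they were, in the same comparisons, 1, 2 and 0 for the VCAM ones, 0 for old 60 h against QSCs and 0 for the difference with age, and 3 instead of 5 for YFP 60 h against QSCs, 4 instead of 7 for old against young cells at 60 h and 3 instead of 5 for the difference in 36 h response between sorts. Quantile normalization left 2 instead of 5 for old 60 h against QSCs. Centring arrays on their medians shifted the median of all genes by 0.11 between 60 and 36 h in VCAM cells and left these counts within 1.5 times.

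Leaving out 1 array at a time gave 4 to 6 members for YFP 60 h against QSCs, 4 to 5 for YFP against VCAM QSCs, for old 60 h against QSCs and for the 36 h response between sorts, 3 to 4 for VCAM 84 h against QSCs, 2 to 3 for the difference with age, 6 to 7 for YFP 60 h against 36 h and 7 to 8 for YFP 84 h against 36 h, with no change elsewhere. A replicate block, which uses the replicate number as a pair, changed no call of a member (7 called for VCAM 36 h against QSCs). For pattern likeness the median r of the 7 members without Scx was 0.905, and 0.915 over the 24 arrays of young mice or 0.908 over the 10 group means. Of the counts for the gene lists 4773 stayed within 1.5 times and 407 moved.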
